A study of Mus musculus with 12 samples.

Results

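The genes described here encode the enzymes, carriers, import factors and regulators of fatty acid oxidation in mitochondria and peroxisomes. They were measured in primary murine hepatocytes, the parenchymal cells of the liver, that were left untreated or stimulated with transforming growth factor β1 (TGF-β1). The set was named by gene symbol, and a gene counted as measured where the array's probe table paired at least 1 probe set with its symbol and no other. Of 33 named genes, 32 were measured, with 34 probe sets among the 21789 probe sets that carry exactly 1 symbol. Acsl1 was not measured by this rule. Hadhb and Ppargc1a had 2 probe sets each and were represented by the brighter one.

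Hepatocytes were isolated from livers of male C57BL/6 mice by collagenase perfusion, plated on collagen and kept in serum-free HepatoZYME medium. After 24 h of culture the cells received 1 ng/ml of recombinant human TGF-β1 for 20 min, 2 h or 4 h, or none. Each of the 4 groups held 3 arrays, numbered 1 to 3, so that 12 arrays (Affymetrix Mouse Gene 1.0 ST) were compared. The control was untreated cells with no untreated partner at each later time, so that time in culture and treatment cannot be told apart. Every group was a primary isolate in culture. No allele or second agent was used in any group.

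Fatty acids enter the hepatocyte through membrane proteins such as CD36 and the fatty acid transport proteins, are bound in the cytosol by FABP1 and are activated to acyl-CoA by long-chain acyl-CoA synthetases. The carnitine shuttle carries long-chain acyl groups into mitochondria, where a cycle of dehydrogenation, hydration, dehydrogenation and thiolysis shortens them, and electron transfer flavoprotein passes the electrons to the respiratory chain. Peroxisomes shorten very long, branched and bile acid precursor chains with enzymes of their own, which are imported after synthesis by peroxins. In liver many of these genes are targets of the peroxisome proliferator-activated receptors (PPARs), which bind DNA with a retinoid X receptor.

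PPAR pairs are known to bind a direct repeat of the core motif AGGTCA with 1 base between the copies, a layout called DR1. The 250 bases before the annotated start were read from RefSeq (GRCm38.p6) for 37 promoters of 30 members, on both strands, allowing up to 2 mismatches in the 12 fixed letters of DR1. A match was present in 4 of the 37 promoters (10.8%), against 3.24% of all 32851 promoters of the same length. The exact core AGGTCA, which can lie inside a DR1 match, was present in 27.0% of the members' promoters and in 14.0% of all. The motif CAGAC, a core that SMAD proteins downstream of TGF-β receptors are known to bind, was present in 54.1% and 42.2%. Mean GC content was 58.7% in the members' promoters and 53.2% in all, and these matches are descriptions of letters, with no measure of binding.

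Fabp1 and Cd36 are shown in full because they had the largest decreases at 4 h among the uptake genes of the set. The windows of Slc27a2 and Acsl5, the other measured members of uptake and activation, held no DR1 match. The Fabp1 window lies at chr6:71199629-71199878 on the plus strand and the Cd36 window at chr5:17835897-17836146 on the minus strand. Both are written 5′ to 3′ along the gene, and capitals mark the DR1 match, which reads as the reverse complement in both.
Fabp1: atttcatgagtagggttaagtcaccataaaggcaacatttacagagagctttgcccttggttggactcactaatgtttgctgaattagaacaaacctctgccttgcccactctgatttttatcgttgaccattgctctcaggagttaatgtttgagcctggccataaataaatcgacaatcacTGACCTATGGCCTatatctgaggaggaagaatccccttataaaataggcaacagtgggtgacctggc
Cd36: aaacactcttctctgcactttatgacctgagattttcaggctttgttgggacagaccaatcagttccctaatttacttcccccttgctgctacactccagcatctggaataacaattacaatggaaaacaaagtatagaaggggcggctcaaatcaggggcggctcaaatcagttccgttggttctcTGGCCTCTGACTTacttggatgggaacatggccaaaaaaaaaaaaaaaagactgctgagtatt
The Fabp1 match had 1 mismatch and began 67 bases before the start, and the Cd36 match had 2 mismatches and began 63 bases before it. The other matches, each with 2 mismatches, were those of Cat and Etfa, and only the matched bases are shown, in capitals.
Cat: AGGTCAGAGAACA
Etfa: TTACCTTTGCCCT

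Hadha and Hadhb encode the α and β subunits of the mitochondrial trifunctional protein. They lie head to head on chromosome 5, Hadha on the minus and Hadhb on the plus strand, with 272 bases between their starts. The Hadhb window is shown because the same stretch, read on the opposite strand, is most of the Hadha window, and because both genes had like changes in each replicate. It lies at chr5:30155003-30155252 and held no DR1 match, so no base is in capitals.
Hadhb: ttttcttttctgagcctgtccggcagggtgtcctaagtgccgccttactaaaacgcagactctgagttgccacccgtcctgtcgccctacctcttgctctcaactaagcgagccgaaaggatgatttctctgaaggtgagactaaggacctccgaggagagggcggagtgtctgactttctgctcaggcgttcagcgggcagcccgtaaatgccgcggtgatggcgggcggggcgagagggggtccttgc

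The deposited values are log2 signals after robust multi-array averaging, which sets all arrays on a common scale, and the median array signal ran from 6.82 to 6.93. Arrays numbered 1 stood apart from the rest: their signals correlated at 0.978 to 0.988 with arrays numbered 2 or 3, whereas the latter correlated with one another at 0.994 to 0.997. The linear signals of the 12 hepatocyte markers, summed and then put on the log2 scale, came to 17.2 to 17.4 on every array. The brightest markers weigh most in such a sum. At 4 h, 10 of them had a log2 change below 0, and 9 were lower in 3 of 3 replicates, against 17.4% of all probe sets. Their median log2 change was −0.09, and 1 of them (Asgr1, −0.29) was called lower, against 3.02% of all probe sets. Because arrays numbered 1 stood apart, changes were taken within replicate numbers, in a limma fit with time and replicate as factors across all 21789 probe sets. A change was called at a Benjamini-Hochberg adjusted p under 0.05. In bulk arrays, fewer cells of a type and less RNA per cell cannot be told apart.

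After 4 h, Cd36, Slc27a2 and Pex7 were lower and Acox2 was higher, while the other 28 measured members were not called. The 3 called lower among 32 compare with 3.02% of all probe sets and the 1 called higher with 1.57%. These shares include dim probe sets. In a fit of only the 10895 probe sets at or above the median signal, 10% were called, 729 lower and 363 higher. With the study's own cut-offs (2-fold or more, adjusted p under 0.01), 0 members were called, against 0.0964% of all probe sets. Without adjustment, 2 members were higher and 10 lower at p under 0.05 in the limma fit, where 7.54% of all probe sets were higher and 9.49% lower. The median log2 change of the members was −0.07, against 0.02 for all probe sets, with 12 members above 0 and 20 below. At 4 h their changes were wider than those of the array as a whole, with a median absolute log2 change of 0.156 against 0.0763. It was 0.083 against 0.0651 at 20 min and 0.0293 against 0.0557 at 2 h. These comparisons were not matched for signal.

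**Figure D1:**
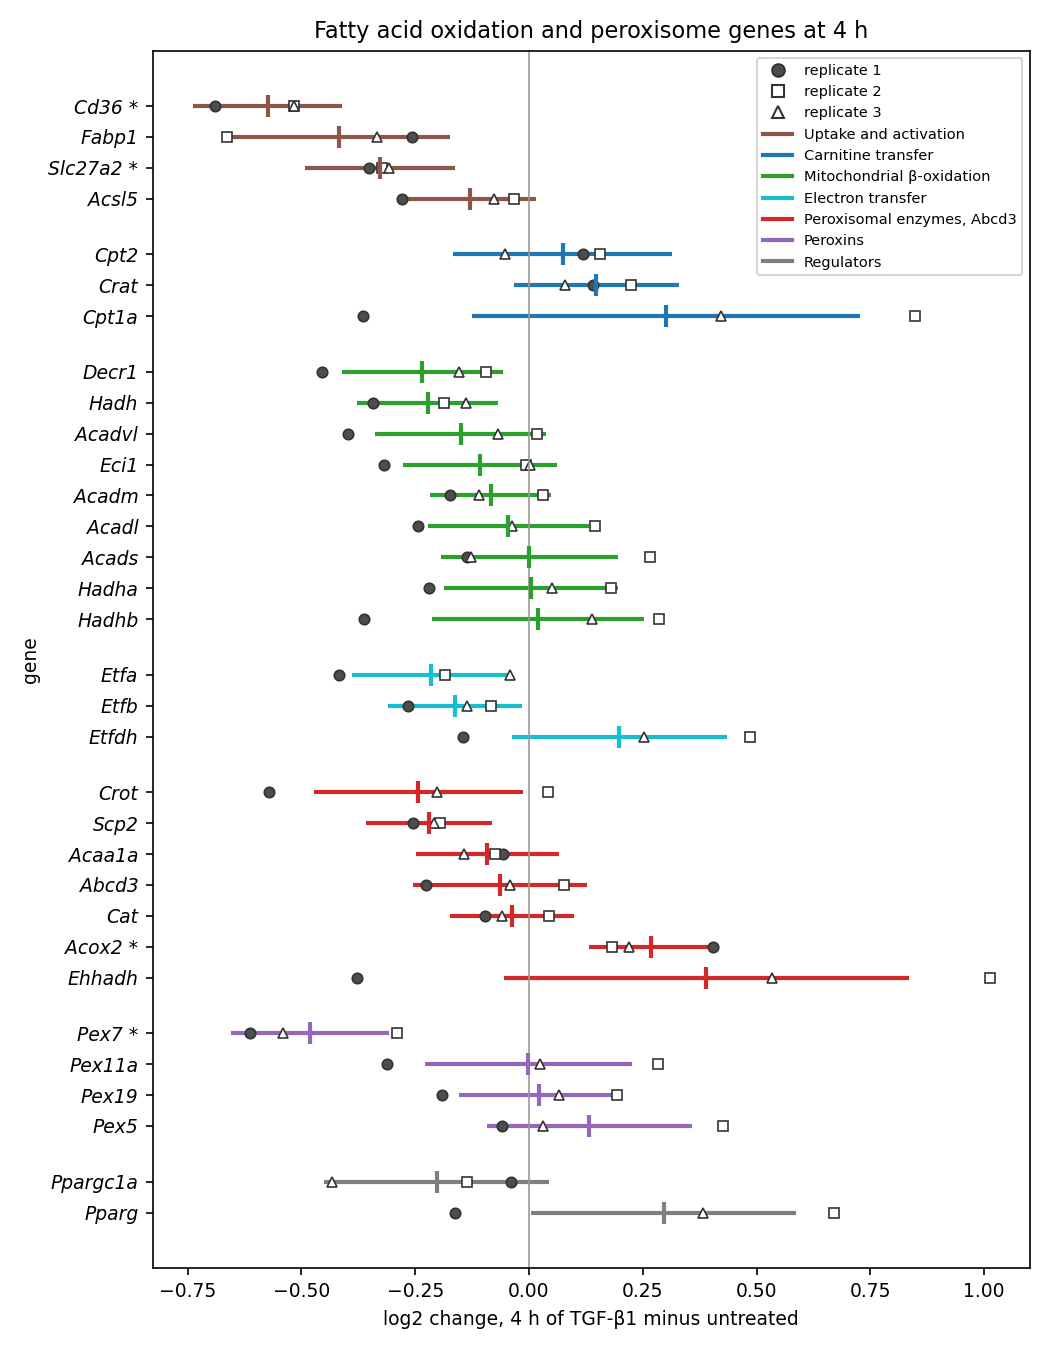
Log2 change from untreated to 4 h for the 32 measured genes, grouped by role. Coloured bars show the limma estimate (tick) with its 95% interval, symbols show the change in each of the 3 replicates, and an asterisk marks an adjusted p under 0.05. The 4 measured uptake and activation genes lie below 0 in all 3 replicates, whereas Cpt1a, Ehhadh and Pparg have replicate 1 below 0 and replicates 2 and 3 above it.

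All 4 measured members of uptake and activation were lower at 4 h in 3 of 3 replicates. Of these, 2 were called lower, against 3.02% of all probe sets. The 7 measured uptake genes outside the set lay on both sides, with 2 above 0 and 5 below, 1 of them called (Slc27a5, lower), and Slc27a4 at 0.36 was higher in 3 of 3 replicates (limma adjusted p = 0.051). Over the whole set 12 of 32 members were lower in 3 of 3 replicates, against 17.4% of all probe sets, and 2 of 32 (Acox2 and Crat) were higher in 3 of 3, against 18.2%.

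Cd36 encodes the fatty acid translocase of the plasma membrane, a scavenger receptor also present on macrophages and endothelium. Its log2 signal in replicates 1, 2 and 3 was 7.50, 7.74 and 7.83 in untreated cells, 6.99, 7.43 and 7.36 at 20 min, 7.19, 7.62 and 7.38 at 2 h, and 6.81, 7.23 and 7.31 at 4 h. All 4 h arrays lay below all untreated arrays, and in each replicate the 20 min value was already below the untreated one. The change at 4 h was −0.57 (95% interval −0.74 to −0.41, n = 3 per group), a 1.49-fold lower signal with a limma adjusted p of 0.0029. The change was −0.43 at 20 min (limma adjusted p = 0.21) and −0.30 at 2 h (limma adjusted p = 0.34).

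Macrophage markers were lower at 4 h as well. Among all probe sets, 3.02% were called lower at 4 h and 1.57% higher. Of 12 macrophage markers, 6 were called lower at 4 h and 0 higher, with a median log2 change of −0.45. The defining markers Adgre1 and Csf1r had −0.44 and −0.57 (limma adjusted p = 0.021 and 0.0020). Of the 12 markers, 7 had a mean signal below 7.23, the median of all probe sets. The linear signals of the 12 markers, summed and then put on the log2 scale, came to 12.5 to 12.7 in untreated cells. At 4 h they came to 12.1 to 12.4. Cd68, the brightest of the 12 with a mean signal of 11.85, weighs most in this sum. Its own change of −0.24 was not called (limma adjusted p = 0.27). The differences in the sum between 4 h and untreated were −0.35, −0.51 and −0.17 in replicates 1, 2 and 3. The median log2 change of these markers was −0.07 at 20 min and −0.30 at 2 h, where Cd36 had −0.43 and −0.30. The sum over these markers differed from untreated, on the log2 scale, by −0.18, −0.14 and −0.15 in replicates 1, 2 and 3 at 20 min. At 2 h the differences in the sum were −0.11, −0.36 and −0.09. Clec4f, which defines the resident liver macrophage, was dim, with a mean signal of 6.49. Its log2 change was 0.07 (0.31, −0.10 and −0.01 in replicates 1, 2 and 3) and was not called. Of 8 endothelial markers 1 was lower (Lyve1, −0.37), of 8 stellate cell markers 1 was lower (Dcn, −0.48), of 5 measured cholangiocyte markers 1 was higher (Cldn4, 1.05), and of 5 adipocyte markers 1 was higher (Cidec, 0.64, which is also made in hepatocytes). The part of these cells in the Cd36 value was not tested.

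Slc27a2 encodes a very long-chain acyl-CoA synthetase that also takes up fatty acids. Its log2 signal in replicates 1, 2 and 3 was 13.02, 11.79 and 11.69 in untreated cells, 12.71, 11.74 and 11.72 at 20 min, 13.00, 11.70 and 11.73 at 2 h, and 12.67, 11.46 and 11.39 at 4 h. Groups overlapped because replicate 1 was brighter throughout, but within every replicate the 4 h array was the lowest. The changes by replicate were −0.35, −0.32 and −0.31, giving −0.33 (95% interval −0.49 to −0.16) with a limma adjusted p of 0.031. At 2 h the change was −0.02, so that the difference lay between 2 h and 4 h, although the step from 2 h to 4 h itself was not called (−0.30, limma adjusted p = 0.15).

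Fabp1 encodes the liver fatty acid binding protein, and it fell short of the threshold. Its signal was 13.47, 11.20 and 10.98 in untreated cells, 13.41, 11.02 and 11.13 at 20 min, 13.44, 10.71 and 11.23 at 2 h and 13.21, 10.53 and 10.65 at 4 h. The 4 h array was the lowest of each replicate, with a change of −0.42 (95% interval −0.66 to −0.17) and a limma adjusted p of 0.06. Acsl5, a long-chain acyl-CoA synthetase, had changes of −0.28, −0.03 and −0.08 and was not called (limma adjusted p = 0.36).

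**Figure D2:**
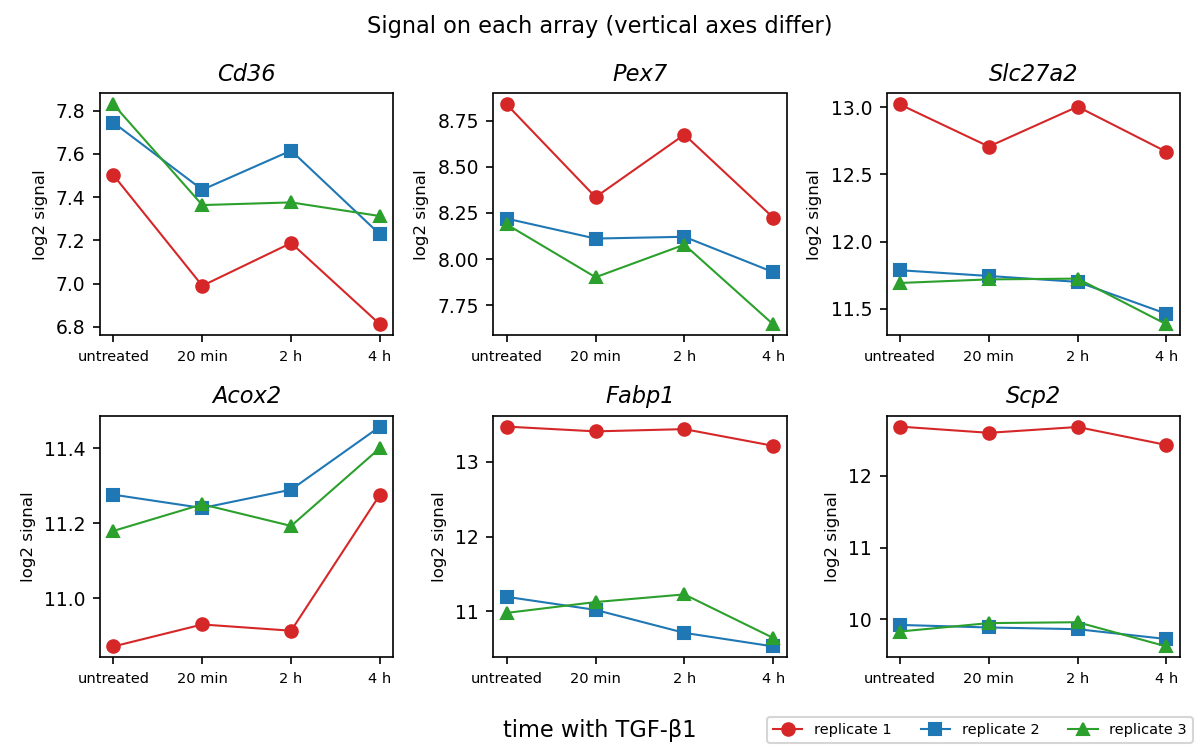
Log2 signal on each of the 12 arrays for Cd36, Pex7, Slc27a2, Acox2, Fabp1 and Scp2, with 1 line per replicate number. In Cd36 all 4 h arrays lie below all untreated arrays, and in Slc27a2, Fabp1 and Scp2 the red line of replicate 1 lies more than 1 log2 unit above the other lines at most times.

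In the carnitine shuttle 0 of 3 genes were called at 4 h, and 0 at an unadjusted p under 0.05 in the limma fit. Cpt1a encodes the outer membrane carnitine palmitoyltransferase that controls long-chain entry, Cpt2 its inner membrane partner and Crat carnitine acetyltransferase. Cpt1a read 10.40, 9.36 and 9.50 in untreated cells, 10.34, 9.11 and 9.33 at 20 min, 10.48, 9.67 and 9.83 at 2 h and 10.04, 10.21 and 9.92 at 4 h. Replicate 1 was thus the highest untreated array and had its lowest value at 4 h, while replicates 2 and 3 had their highest values then. The changes were −0.36, 0.85 and 0.42, and their estimate of 0.30 had a 95% interval of −0.12 to 0.73 (limma adjusted p = 0.49). Cpt2 had a log2 change of 0.07. Crat had 0.15, with all 4 h arrays (9.40, 9.51 and 9.45) above the untreated ones (9.26, 9.29 and 9.37), and was not called (limma adjusted p = 0.41).

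The β-oxidation spiral had 9 members. They include the acyl-CoA dehydrogenases of successive chain lengths (Acadvl, Acadl, Acadm and Acads), the trifunctional protein (Hadha and Hadhb), the short-chain hydroxyacyl-CoA dehydrogenase (Hadh) and the auxiliary enzymes for unsaturated chains (Decr1 and Eci1). Of these genes 0 were called at any time, 2 (Hadh and Decr1) were lower at 4 h at an unadjusted p under 0.05 in the limma fit (9.49% of all probe sets), and their log2 changes at 4 h ran from −0.23 to 0.02. Hadh, at −0.22 (−0.34, −0.19 and −0.14 by replicate), and Decr1, at −0.23 (−0.45, −0.09 and −0.15), were lower in every replicate without passing the threshold (limma adjusted p = 0.11 and 0.14). For Acads the change was 0.00 with a 95% interval of −0.19 to 0.19, so that a shift of up to 0.19 on the log2 scale either way lay within the interval.

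The subunits of the trifunctional protein ran side by side. Hadha changed by −0.22, 0.18 and 0.05 and Hadhb by −0.36, 0.28 and 0.14 in replicates 1, 2 and 3. The dimmer Hadhb probe set gave −0.37, 0.27 and 0.13. For both genes replicate 1 was lower at 4 h and the other replicates were higher, and the estimates of 0.00 and 0.02 were not called.

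Among the electron carriers, Etfa and Etfb encode the subunits of electron transfer flavoprotein and Etfdh the membrane dehydrogenase that accepts its electrons. Etfa had a log2 change of −0.21 and Etfb of −0.16, each lower in 3 of 3 replicates, with limma adjusted p of 0.18 and 0.24. Etfdh had changes of −0.14, 0.49 and 0.25 and was not called (limma adjusted p = 0.40). Over all 15 mitochondrial genes, 0 were called, 4 (Hadh, Decr1, Etfa and Etfb) were lower at an unadjusted p under 0.05 in the limma fit, as were 9.49% of all probe sets, and the median log2 change was −0.05.

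In the peroxisome, Acox2 was the one member of the set called higher. It encodes the branched-chain acyl-CoA oxidase that acts on bile acid precursors. Its log2 signal was 10.87, 11.28 and 11.18 in untreated cells, 10.93, 11.24 and 11.25 at 20 min, 10.91, 11.29 and 11.19 at 2 h and 11.28, 11.46 and 11.40 at 4 h. The 4 h array was the highest of each replicate, and the lowest 4 h array and the highest untreated array were equal to 2 decimals. The change was 0.27 (95% interval 0.13 to 0.41), or 1.20-fold, with a limma adjusted p of 0.034. At 20 min and 2 h its log2 change was 0.03 and 0.02.

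Ehhadh, the peroxisomal bifunctional enzyme and a well known PPARα target, had the highest estimate of the set without being called. Its signal was 10.75, 9.96 and 10.07 in untreated cells, 10.81, 10.24 and 10.29 at 20 min, 10.60, 10.75 and 10.29 at 2 h and 10.37, 10.98 and 10.61 at 4 h. Replicate 1 was the highest at the start and the lowest at the end, so that its lines crossed those of replicates 2 and 3. The changes were −0.38, 1.01 and 0.53, with an estimate of 0.39 (95% interval −0.05 to 0.83, limma adjusted p = 0.37).

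Scp2, which encodes a peroxisomal thiolase and a sterol carrier protein, was lower by a similar amount in each replicate. Its signal was 12.69, 9.92 and 9.83 in untreated cells and 12.43, 9.73 and 9.62 at 4 h. The difference of −0.22 between these groups (limma adjusted p = 0.078) was small beside the gap of 2.75 between replicate 1 and the mean of the others. Crot, the peroxisomal carnitine octanoyltransferase, had changes of −0.57, 0.04 and −0.20 (limma adjusted p = 0.26). Cat, which encodes catalase, had a change of −0.04 (95% interval −0.17 to 0.10). The thiolase Acaa1a (−0.09) and the acyl-CoA transporter Abcd3 (−0.06) were not called.

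Of the peroxins, Pex7 was lower and the other 3 were not called. Pex7 encodes the receptor that carries proteins with the type 2 targeting signal into the peroxisome. Its log2 signal was 8.84, 8.22 and 8.19 in untreated cells, 8.34, 8.11 and 7.90 at 20 min, 8.67, 8.12 and 8.08 at 2 h and 8.22, 7.93 and 7.65 at 4 h. In every replicate the 20 min array lay below the untreated one, the 2 h array lay above the 20 min array and the 4 h array was the lowest, while the groups overlapped because the replicates started at different levels. The change at 4 h was −0.48 (95% interval −0.66 to −0.31), or 1.40-fold, with a limma adjusted p of 0.0075, and it was −0.30 at 20 min (limma adjusted p = 0.35).

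Pex5, the receptor for the more common type 1 signal and a partner of Pex7 in import, had a log2 change of 0.13 (95% interval −0.09 to 0.36). Pex19, the chaperone of peroxisomal membrane proteins, had 0.02 and Pex11a, a factor of peroxisome division, 0.00. In Pex5, Pex19 and Pex11a alike, replicate 1 was lower at 4 h and replicates 2 and 3 were higher.

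Both regulators were below the threshold. Pparg encodes PPARγ, the receptor of fat storage that is low in normal hepatocytes, and read 8.56, 8.79 and 8.97 in untreated cells, 8.65, 9.07 and 8.97 at 20 min, 8.61, 9.39 and 9.09 at 2 h and 8.40, 9.46 and 9.35 at 4 h. It was higher in replicates 2 and 3 and lower in replicate 1 at 4 h, with an estimate of 0.30 (limma adjusted p = 0.28). Ppargc1a encodes the coactivator PGC-1α, which promotes oxidation in fasting. Its brighter probe set had a change of −0.20 (limma adjusted p = 0.41), and the dimmer one, with a mean signal of 5.60, had −0.44 (limma adjusted p = 0.044), so that its probe sets differed in call and had the same sign.

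Earlier time points gave few differences. At 20 min and at 2 h, 0 members were called, as were 0 of all probe sets (0% at 20 min and 0% at 2 h). At an unadjusted p under 0.05 in the limma fit, 2 members (Cd36 and Pex7) were lower at 20 min, against 8.46% of all probe sets, and 1 (Cd36) was lower at 2 h, against 6.28%. From 2 h to 4 h, 0 members were called, against 0.078% of all probe sets. At an unadjusted p, 12 members differed over this step, 11 lower and 1 (Acox2) higher, against 8.83% of all probe sets. A moderated F test over the 4 groups called Cd36 and Pex7 (limma adjusted p = 0.017 and 0.038), against 1.4% of all probe sets.

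The number of the replicate accounted for more of the spread of these genes than time did. Of each gene's sum of squares over the 12 arrays, a median of 77.5% lay between replicate numbers and 7.39% between times, against 38.2% and 17.4% over all probe sets. In 17 of 32 members all 4 arrays of replicate 1 were brighter than the other 8, against 8.94% of all probe sets. Scp2, Fabp1, Crot and Slc27a2 were brighter in replicate 1 by 2.75, 2.45, 1.61 and 1.20 on the log2 scale, whereas Pparg, Cpt2, Pex11a, Cd36 and Acox2 were dimmer there, with differences of −0.58, −0.55, −0.42, −0.37 and −0.29. Averaged over its arrays, replicate 1 was brighter in 23 members and dimmer in 9, with peroxisomal genes on both sides. In 3 members all 4 arrays of replicate 1 were dimmer than the other 8, against 16.1% of all probe sets. What distinguished replicate 1 is not given in the sources used here. The study's methods describe a marked batch effect among the mouse hepatocyte arrays, without naming the arrays in each batch, and its part in these values was not tested. They also report that a poor array, replicate 1 of a time point not among these groups, was excluded.

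**Figure D3:**
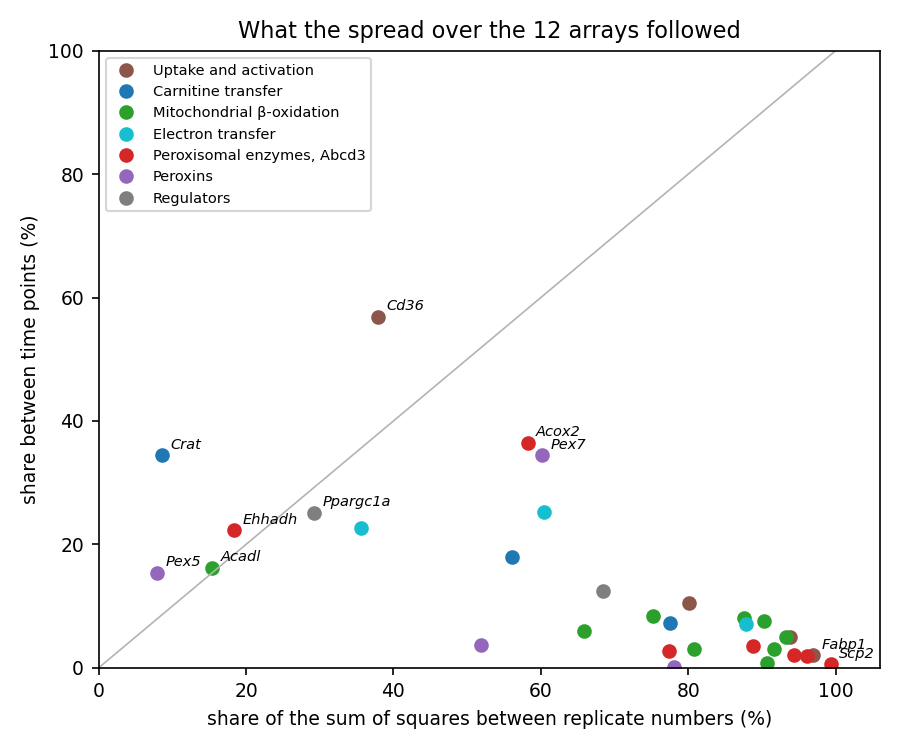
Share of each gene's sum of squares over the 12 arrays that lay between replicate numbers (horizontal axis, percent) and between the 4 time points (vertical axis, percent), with points coloured by role. Of the 32 genes, 27 lie below the diagonal, where the replicate number took the larger share, and Cd36 and Crat stand well above it.

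The response at 4 h also followed the replicate number. In replicate 1, 29 of 32 members were lower at 4 h, with a median log2 change of −0.26, where 44.2% of all probe sets were lower. In replicate 2 the median was 0.04 and in replicate 3 it was −0.06. Over the 32 members the changes in replicates 2 and 3 correlated at 0.90, and those of replicate 1 at 0.25 with replicate 2 and 0.33 with replicate 3, where all points of a replicate share 1 untreated and 1 array at 4 h. Over all probe sets these correlations were 0.58, 0.27 and 0.39. In 9 members (Cpt1a, Hadha, Hadhb, Etfdh, Ehhadh, Pex5, Pex19, Pex11a and Pparg) replicates 2 and 3 were higher and replicate 1 lower, which held for 11.1% of all probe sets, and 0 members had the opposite pattern, which held for 12.3%. The difference in response between replicates was not tested.

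**Figure D4:**
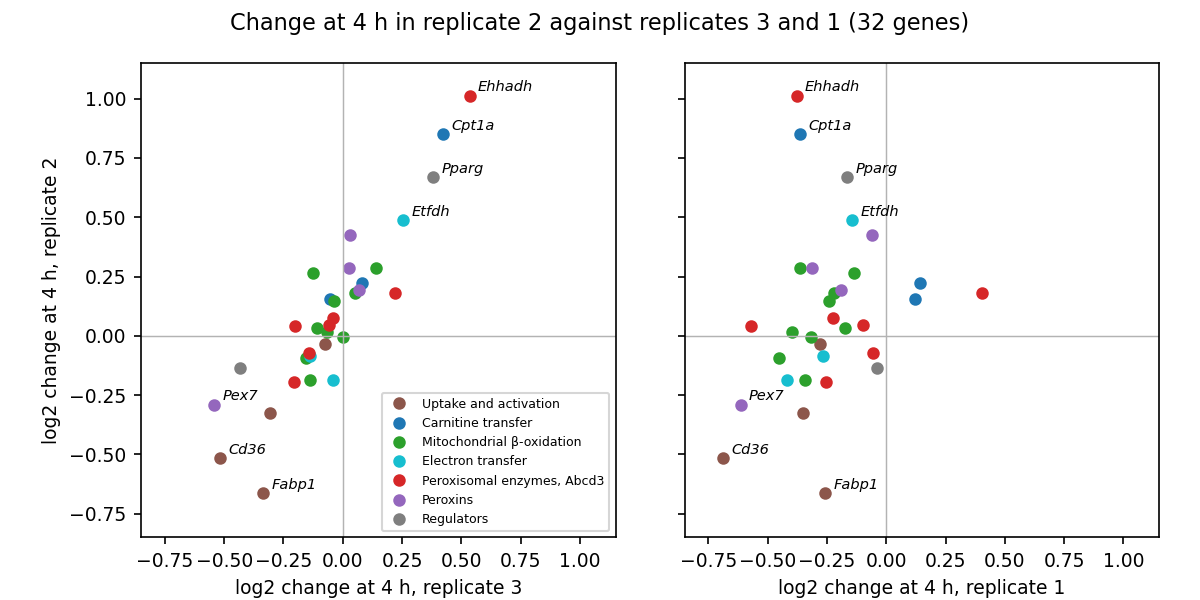
Log2 change at 4 h in replicate 2 (vertical axis) against replicate 3 (left) and replicate 1 (right) for the 32 genes, coloured by role. Points follow a rising line in the left panel (r = 0.90) and spread to the left of 0 in the right panel (r = 0.25), with Ehhadh, Cpt1a, Pparg and Etfdh higher in replicate 2 and lower in replicate 1.

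Leaving out replicate 1 changed which genes were called. In that fit Cpt1a (0.64), Ehhadh (0.77) and Pparg (0.53) were called higher, with limma adjusted p of 0.016, 0.013 and 0.023, and Cd36 (−0.52), Pex7 (−0.42) and Slc27a2 (−0.32) stayed called lower. The 3 members called higher and 3 called lower compare with 2.26% of all probe sets called higher and 2.26% called lower. Acox2 was not called without replicate 1 (0.20, limma adjusted p = 0.16). With all 3 replicates Cpt1a, Ehhadh and Pparg had estimates of 0.30, 0.39 and 0.30 and were not called.

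**Figure D5:**
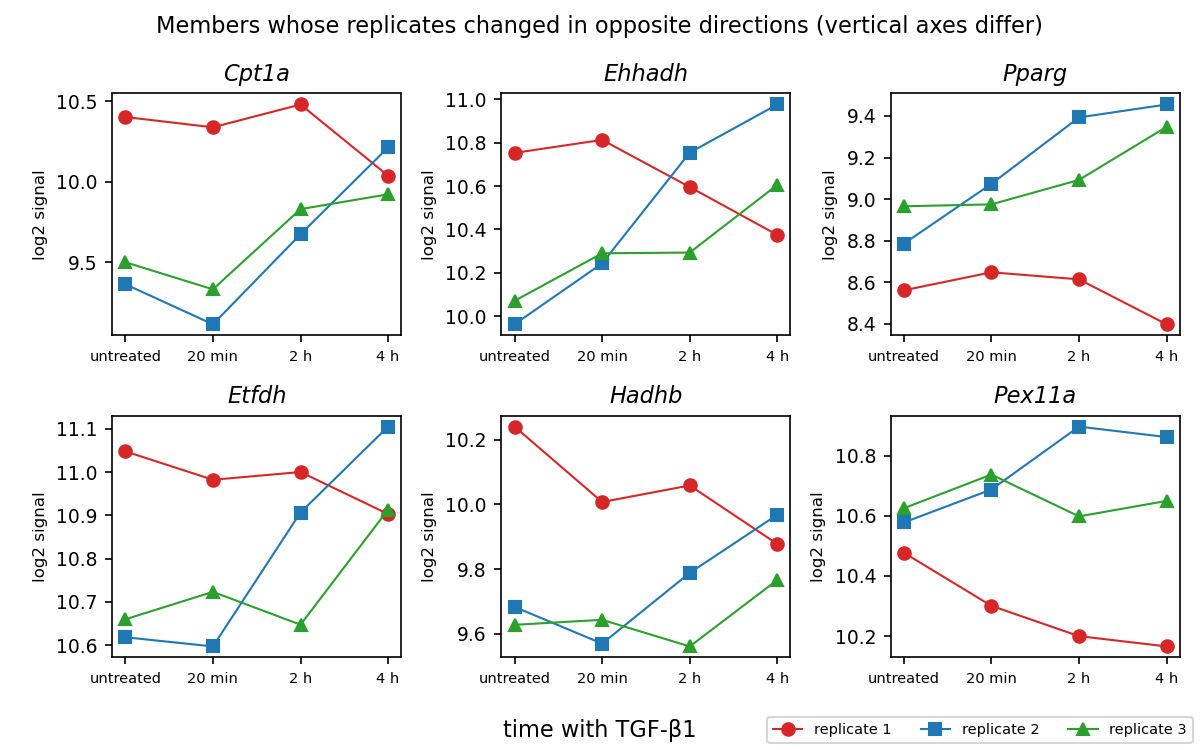
Log2 signal on each of the 12 arrays for Cpt1a, Ehhadh, Pparg, Etfdh, Hadhb and Pex11a, with 1 line per replicate number. In every panel the red line of replicate 1 ends below its start and the lines of replicates 2 and 3 end above theirs, by as much as 1.01 for Ehhadh in replicate 2.

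The calls depended on the pairing and on single replicates. Without the replicate term 0 of the 32 members and 0.142% of all probe sets were called at 4 h, and Cd36 had the same change of −0.57 with a limma adjusted p of 0.404. Without replicate 3, 0 members and 0.147% of all probe sets were called, and Cd36 (−0.60, limma adjusted p = 0.067) and Pex7 (−0.45, limma adjusted p = 0.18) were no longer called. Slc27a2 and Acox2 also lost their calls without replicate 2 and without any single untreated or 4 h array. Without replicate 2, 0.464% of all probe sets were called, and without 1 such array 1.66% to 2.72%. Over 19 alternative settings Cd36 was called in 17, Pex7 in 15, Slc27a2 in 7 and Acox2 in 6, and the sign of each held in all 19, with limma adjusted p from 0.00085 to 0.404, 0.00118 to 0.886, 0.00683 to 0.996 and 0.0181 to 0.938 for these genes in turn.

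Of 80 other genes of the same pathways 71 were measured, of which 10 (14.1%) were called lower at 4 h, 1 (1.41%) higher and 60 not, where 3.02% and 1.57% of all probe sets were lower and higher. The 1 called higher was Pdk4, the kinase that shuts off pyruvate dehydrogenase when fat is burned, with a mean signal of 11.32 ± 0.33 in untreated cells and 12.27 ± 0.56 at 4 h (SD, n = 3) and a change of 0.95 (limma adjusted p = 0.012). Pdk4 is 1 of 17 measured genes listed as PPAR receptors, cofactors and targets, of which 3 were lower and 13 not called. The 3 lower were the microsomal fatty acid ω-hydroxylases Cyp4a14 (−0.56) and Cyp4a10 (−0.29), both PPARα targets, and the coactivator Ppargc1b (−0.41). The 71 pathway genes were bright, with a median signal of 9.45 against 7.23 for all probe sets, and 7 of them lay below 7.23. In a fit of the 10895 probe sets at or above the median signal, 729 were called lower at 4 h and 363 higher.

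Over all probe sets, 3.02% were called lower at 4 h and 1.57% higher. Of 26 measured peroxisomal enzymes and transporters outside the set, 4 were called lower and 0 higher. They were Pecr (−0.41), a trans-2-enoyl-CoA reductase, Idh1 (−0.40), an NADP-dependent isocitrate dehydrogenase also found in the cytosol, Uox (−0.37), urate oxidase, and Amacr (−0.33), the racemase of branched-chain and bile acid intermediates. Slc27a5 (−0.27), the bile acyl-CoA synthetase, was lower too. Of 12 measured genes listed as mitochondrial outside the set, 2 were called lower and 0 higher. They were Acad11 (−0.32), an acyl-CoA dehydrogenase, and the mitochondrial thiolase Acaa2 (−0.24, limma adjusted p = 0.0498). Of the 9 measured genes of peroxisome biogenesis outside the set 0 were called, with 1 (Pex11g) at an unadjusted p under 0.05 in the limma fit. The median change of the 71 genes was −0.10. Without replicate 1, 1 of the 10 genes called lower (Cyp4a14) and Pdk4 kept their calls. Without replicate 2, without replicate 3 or without the replicate term 0 of the 11 did. Calls over all probe sets fell as well, from 1000 in the main fit to 101 (0.464%), 32 (0.147%) and 31 (0.142%) in these 3 settings in turn. Without replicate 1 the count was 985 (4.52%).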

How the data were processed

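Expression was measured on 12 arrays of primary murine hepatocytes, in 4 groups of 3. The deposited values are log2 signals of 35556 probe sets, which the authors made with robust multi-array averaging (RMA) in Affymetrix Power Tools, per the submitters' processing notes (versions not given in the sources used here). The analysis described in the study used FARMS summarization and ComBat batch adjustment, neither of which is applied to these values. Signal, not read depth, sets the precision here, and 3 arrays per group limit it.

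Probe sets were named from GEO's platform annotation: 21789 had 1 symbol, 1621 several and 12146 were not listed. Only the first were tested. A gene with several probe sets was represented by the one with the highest mean signal. The fit was made with lmFit and eBayes of limma 3.58.1 in R 4.3.3, with factors for time and replicate (leaving 6 degrees of freedom), and p-values were adjusted by Benjamini-Hochberg over all tested probe sets. A moderated F test stood in for the time course method of the study. Intervals are at 95%. The fit was tested on simulated data.

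The study describes 3 biological replicates, but which samples share an animal or a day is not given, so that p-values measure only the spread between these samples. The fit took the numbers to pair the samples. Deviations from the group means correlated at 0.56 to 0.88 in all 18 pairs of arrays with the same number. Because arrays numbered 1 stood apart from the rest, this correlation cannot show whether arrays numbered 2 and 3 are paired across groups. Replicates 2 and 3 of different groups also correlated at 0.54 to 0.72, and the difference between replicates 2 and 3 correlated at −0.24 to 0.41 between groups. The members and gene lists were chosen with earlier results of these data known. All members were named by their brightest probe set, with at most 10 other pathway genes called at 4 h, by absolute change, and a marker where it defined its cell type. Asgr1, Cd68, Lyve1, Dcn, Cldn4, Cidec, Pex11g, Slc27a4 and Acaa2 were named after their values were seen. Dropping or randomising the replicate term, fitting the compared groups alone, other normalization, filters, priors and array weights, averaging probe sets and leaving out each replicate or array were tried.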

Additional observations from a re-analysis of the deposited data

How the results depend on the processing

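With the replicate number as a fixed term, the count of members called was 4 at 4 h and 2 in the F test. With no replicate block the counts were 0 and 0, as against 31 of all probe sets called at 4 h in place of 1000, with the replicate as a random block 1 and 0 (225 probe sets), and with all named and unnamed probe sets tested 2 and 0 (371). The fit of the compared groups alone called 1 member at 4 h (352 probe sets). Array weights, which give less weight to arrays that vary more, called 8 at 4 h (1799 probe sets), 6 over the time course and 2 from 2 h to 4 h, where the fixed term with equal weights gave 0. Leaving out a replicate or a single array gave from 0 to 6 members at 4 h, with 6 without replicate 1 (985 probe sets), 2 without replicate 2 (101) and 0 without replicate 3 (32), and from 0 to 3 over the time course. Filtering on signal, quantile normalization, centring, a trended prior and averaging of probe sets gave 4 or 5 members at 4 h. At 20 min and at 2 h 0 members were called in every setting run. The median change of the members at 4 h was −0.07 and ran from −0.14 to −0.01 over the alternatives. Of the 28 members not called at 4 h, 8 changed sign in at least 1 of 19 alternatives and 5 were called in at least 1. Fits without a single 20 min or 2 h array were not among the 19. The cause of these shifts was not tested. Fewer samples were fitted wherever a replicate was left out.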

Other observations

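In the limma fit without replicate 1, chosen as an alternative, 2.26% of all probe sets were called higher at 4 h and 2.26% lower. Among the 71 measured pathway genes outside the set, 6 were called higher and 1 lower in that fit. Besides Pdk4 (1.07), the genes called higher were Acat1 (0.61), which encodes the mitochondrial acetoacetyl-CoA thiolase, the fatty acid transport protein Slc27a4 (0.46), the fatty acid binding protein Fabp4 (0.44), the phosphatidate phosphatase and coactivator Lpin1 (0.43) and the lipid droplet coat gene Plin2 (0.41). The gene called lower was Cyp4a14 (−0.47). With the exception of Pdk4 and Cyp4a14, these genes were not called with all 3 replicates and were named after their values were seen. As with Cpt1a, Ehhadh and Pparg, whether their response differs between replicate 1 and the others was not tested.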
